A study of Mus musculus with 4 samples.

Results

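The 10 genes described here encode parts of the neuronal cytoskeleton and of receptor sorting that endocrine cells of the pancreatic islet share with neurons, namely Mapt, Map1b, Tubb3, Stmn2, Nefl, Nefm, Gap43, Gprasp1, Gprasp2 and Uchl1. They were chosen by name out of 55421 gene identifiers, with earlier results of these data known. Mapt and Gprasp2 were picked because their transcripts were far lower in mice on a high-fat diet, with no cutoff given. For Mapt and Gprasp2 the difference between diets is therefore a description without a test. The other 8 genes are given with p-values, but they were not chosen blind to these data. RNA came from wild-type mice of the inbred strain C57BL/6, and the labels name the material as macrophages of the islet. The 2 groups were mice on normal chow (NCD, 2 libraries) and mice on a high-fat diet (HFD, 2 libraries); age and duration of feeding are unstated in the sources used here. Whether both libraries of a diet derive from different mice is unstated, so p-values reflect only how far these libraries vary, and that variation may be technical. How the macrophages were separated from the islet, and in what number, is unstated too.

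Neurons build their axons on bundles of microtubules, which are polymers of alpha and beta tubulin, and on neurofilaments. Tau and MAP1B bind along microtubules and stathmins take up free tubulin. Endocrine cells of the islet carry hormone granules along microtubules to the membrane and use many genes otherwise known from neurons, which the repressor REST silences in most other cell types. GPRASP1 and GPRASP2 bind the tails of G protein-coupled receptors and take part in the choice between recycling and lysosomal breakdown after endocytosis.

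The libraries held between 56740720 and 64490097 counts each. Levels are CPM, that is counts per 1000000 after TMM scaling between libraries, and errors are SD over n = 2 libraries. Transcripts of endocrine cells outweighed those of macrophages: 21 endocrine markers other than hormones summed to 17780 and 17970 CPM under NCD and 12600 and 12930 CPM in HFD, and 17 macrophage markers to 1204 and 1172 CPM under NCD and 1135 and 1143 CPM in HFD. Within the macrophage list, single genes moved in both directions. In the edgeR test described below (adjusted p under 0.05), 8 of the 17 were lower in HFD and 5 higher (median log2 change -0.27). Over all genes tested, 14.5% were lower and 17.9% higher. With library sizes taken from the endocrine markers, 3 of the 17 were lower and 9 higher, against 1.99% and 46.3% of all genes. Other cell types moved with diet as well. Summed acinar markers went from 502 and 527 CPM to 3505 and 3936 CPM, fibroblast markers from 159 and 155 CPM to 1607 and 1606 CPM, and B cell markers from 569 and 569 CPM to 3733 and 3788 CPM. Their part in the results below was not tested. In such bulk samples fewer cells of a type and less RNA per cell cannot be told apart.

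Gprasp1 and Gprasp2 lie 96.3 kb apart on the X chromosome, measured between their starts, and both stood lower in HFD, so the sequences before their starts are shown side by side. These are the 250 bases upstream of the RefSeq start (GRCm38.p6, plus strand), chrX:135742442-135742691 for Gprasp1 and chrX:135838784-135839033 for Gprasp2. Neither window touches an annotated exon. Capitals mark a GC box, a common element of promoters without a TATA box.
Gprasp1: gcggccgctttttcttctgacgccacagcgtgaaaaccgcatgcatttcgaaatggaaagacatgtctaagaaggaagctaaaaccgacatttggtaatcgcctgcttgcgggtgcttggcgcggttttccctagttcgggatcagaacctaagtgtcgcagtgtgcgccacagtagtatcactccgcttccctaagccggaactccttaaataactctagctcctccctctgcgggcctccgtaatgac
Gprasp2: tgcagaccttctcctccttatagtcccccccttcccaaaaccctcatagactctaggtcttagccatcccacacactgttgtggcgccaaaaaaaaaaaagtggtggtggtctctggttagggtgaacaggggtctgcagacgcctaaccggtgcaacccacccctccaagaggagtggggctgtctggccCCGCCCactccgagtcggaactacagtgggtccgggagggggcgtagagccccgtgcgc
The windows held 52.4% and 59.6% G and C, against a median of 52.4% over 32851 promoter windows of this length, and 18 and 10 CG pairs against a median of 6. The GC box (GGGCGG, on either strand) began 59 bases before the start of Gprasp2 and had no match at Gprasp1. It was found in 32.7% of all windows. The left and right parts of the REST element (TTCAGCACC and GGACAGC), the cyclic AMP element (TGACGTCA), the NRF1 core and TATAAA had no match in either window. On either strand they occurred in 0.301%, 5.28%, 1.55%, 0.782% and 12.4% of all windows. Of the 10 genes, 5 had an entry in the promoter table, and the windows of Map1b, Tubb3 and Uchl1 overlapped annotated exons and are not shown.

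**Figure D1:**
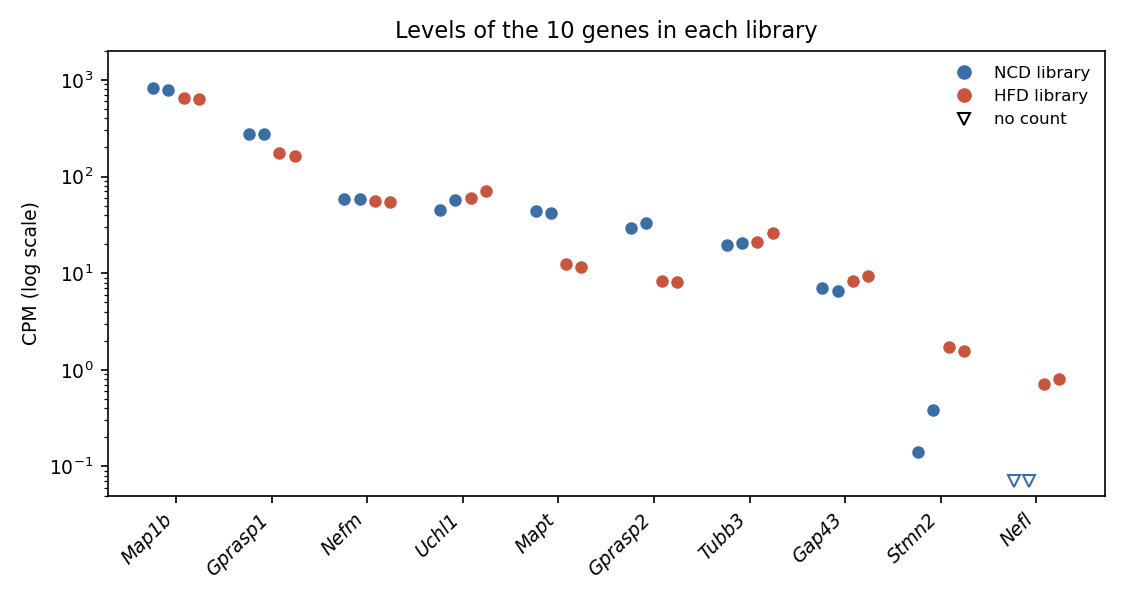
CPM of each gene in each library on a log axis, with NCD libraries in blue, HFD libraries in red and open triangles for libraries without a count. Mapt and Gprasp2 drop between the diets from 41.5 CPM or more to 12.3 CPM or less and from 29.3 CPM or more to 8.35 CPM or less, whereas Nefm stays between 54.6 and 58.5 CPM.

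Per kilobase of exons, Map1b was the most abundant of the genes in NCD, at 51.9 and 49.1 CPM per kb. Gprasp1, at 34.0 and 34.0 CPM per kb, and Uchl1, at 27.9 and 34.9 CPM per kb, came next and overlapped each other. Below them stood Tubb3 with a mean of 10.8, Nefm with 10.1, Gprasp2 with 6.90, Mapt with 5.68 and Gap43 with 4.46 CPM per kb, and each of these lay apart from its neighbour in both NCD libraries. Stmn2, with a mean of 0.0469 CPM per kb, and Nefl, without a count, closed the order in NCD. In HFD the order shifted at 2 places. Uchl1, with a mean of 40.2 CPM per kb, stood level with Map1b, with 40.3, and above Gprasp1, with 20.8. Gap43, with 5.78 CPM per kb, moved above Gprasp2, with 1.81, and Mapt, with 1.59.

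Mapt (ENSMUSG00000018411, chr11:104231390-104332090, plus strand) encodes tau, which binds and stabilises axonal microtubules. Its level was 44.1 and 41.5 CPM in the NCD libraries and 12.3 and 11.6 CPM in the HFD libraries. Both HFD libraries lay well under both NCD libraries, with a mean in HFD of 28.0% of that in NCD (log2 change -1.84, SE 0.09). Gprasp2 (ENSMUSG00000072966, chrX:135839034-135844730, plus strand) stood at 29.3 and 33.4 CPM under NCD and at 8.35 and 8.06 CPM in HFD, a mean of 26.2% of that in NCD (log2 change -1.93, SE 0.11). The libraries of the diets did not overlap. Of 12732 tested genes whose mean reached 5 CPM, 6 had a lower log2 change than Gprasp2 and 9 a lower one than Mapt, and over all 21563 tested genes 123 and 154. Gprasp2 shares 376 exonic bases, or 8.28% of its exons, with its neighbour Bhlhb9 on the same strand, which had 1006 to 1624 counts per library. How reads there were assigned is unstated in the sources used here.

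Likeness to Mapt and Gprasp2 was measured as the distance between log2 CPM values centred on each gene's mean, over 4 libraries of 2 diets and 11970 other protein-coding genes whose mean reached 5 CPM, and is a description of these libraries. With 2 diets this distance mostly reflects the size of the diet difference by which both genes were picked, so their nearness to each other follows from that choice. Gprasp2 was the nearest gene but one to Mapt (distance 0.215) and Mapt the nearest to Gprasp2. Fam135b came nearest to Mapt (distance 0.131), at 87.4 and 81.1 CPM under NCD and 26.9 and 24.6 CPM in HFD. Fam151a (104 and 111 CPM under NCD, 30.1 and 33.3 CPM in HFD) and Kcnab3, an auxiliary subunit of potassium channels (11.8 and 12.5 CPM, then 3.75 and 4.03 CPM), were among the 5 nearest of both genes. The fifth place for Mapt was held by Cx3cr1, the fractalkine receptor, which is on the list of macrophage markers used here (12.5 and 9.51 CPM, then 2.75 and 3.003 CPM). For Gprasp2 it was held by Otoa, an inner-ear protein (9.76 and 9.69 CPM, then 2.49 and 3.09 CPM).

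The other 8 genes went in different directions. With edgeR's quasi-likelihood test and Benjamini-Hochberg adjustment over 21563 genes, 2 of the 8 fell, 2 rose and 4 did not pass an adjusted p of 0.05. Over all genes tested, 14.5% passed as lower and 17.9% as higher, 32.4% in all. Counting all 10 genes, the libraries of the diets did not overlap in any of them, with 5 higher and 5 lower in HFD, against 67.7% of all genes tested (34.5% higher and 33.2% lower). The diet contrast that chose Mapt and Gprasp2 enters that count, so nothing is read from it. All 10 genes passed the filter on low counts, Nefl and Stmn2 through their HFD libraries.

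Gprasp1 (ENSMUSG00000043384, chrX:135742733-135803474, plus strand), the paralog that sorts opioid and dopamine receptors towards lysosomes, fell from 276 and 276 CPM under NCD to 174 and 164 CPM in HFD. That is 61.3% of the level in NCD (log2 change -0.71, SE 0.05, edgeR adjusted p = 0.000430), a smaller difference than that of Gprasp2 beside it. Its exons share 456 bases, or 5.62%, with Armcx5 and 36 bases with Bhlhb9, all on the same strand. Map1b (ENSMUSG00000052727, chr13:99421446-99516540, minus strand), which binds microtubules in growing axons, fell from 822 and 777 CPM to 648 and 629 CPM, or 79.9% of the level in NCD (log2 change -0.32, SE 0.04, edgeR adjusted p = 0.00357). Map1b thus changed less than Gprasp1, and its libraries did not overlap between the diets.

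Of the genes that did not pass, 3 had higher values in HFD. Uchl1 (ENSMUSG00000029223, chr5:66676091-66687234, plus strand), an abundant ubiquitin hydrolase of neurons and endocrine cells, stood at 45.4 and 57.0 CPM under NCD and at 60.1 and 71.0 CPM in HFD (log2 change 0.36, SE 0.14, edgeR adjusted p = 0.106). The gap between the NCD libraries was larger than that between the diets at their closest. Uchl1 passed with DESeq2 (DESeq2 adjusted p = 0.0359), with the replicate number as a block (edgeR adjusted p = 0.0243) and without NCD replicate 2 (edgeR adjusted p = 0.0393), and its adjusted p ranged from 0.00375 to 1 over all alternatives. Gap43 (ENSMUSG00000047261, chr16:42248442-42340651, minus strand), a protein of the growth cone membrane, stood at 6.98 and 6.60 CPM under NCD and at 8.30 and 9.31 CPM in HFD (log2 change 0.38, SE 0.15, edgeR adjusted p = 0.109). Tubb3 (ENSMUSG00000062380, chr8:123411424-123422015, plus strand), the neuronal beta tubulin, stood at 19.7 and 20.7 CPM under NCD and at 21.0 and 26.3 CPM in HFD (log2 change 0.23, SE 0.13, edgeR adjusted p = 0.255). Replicate 1 of HFD was close to the NCD libraries in Tubb3 and replicate 2 was not.

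Nefm and Nefl, which encode the medium and light neurofilament chains, lie in opposite directions on chromosome 14 and behaved differently. Nefm (ENSMUSG00000022054, chr14:68082590-68124846, minus strand) stood at 58.5 and 58.5 CPM under NCD and at 56.1 and 54.6 CPM in HFD (log2 change -0.08, SE 0.06, edgeR adjusted p = 0.375). Nefl (ENSMUSG00000022055, chr14:68083863-68089095, plus strand) had no count in either NCD library and 44 and 46 counts, or 0.711 and 0.813 CPM, in HFD. Against a floor of 12 counts per NCD library this was at least 4.02-fold higher (edgeR adjusted p = 0.00682), and without HFD replicate 2 the call was lost (edgeR adjusted p = 0.0527). The exons of the 2 genes share 1108 bases on opposite strands, 32.8% of those of Nefl and 19.2% of those of Nefm. The strand setting of the counting is unstated in the sources used here. The light chain forms the core of neurofilaments in nerve. Per kilobase of exons, Nefm stood at a mean of 9.58 CPM under HFD and Nefl at 0.225 CPM.

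Stmn2 (ENSMUSG00000027500, chr3:8509360-8561606, plus strand), a stathmin of growing axons, had 9 and 24 counts under NCD and 107 and 89 counts in HFD. In CPM these were 0.140 and 0.386 in NCD and 1.73 and 1.57 in HFD, a rise (log2 change 2.65, SE 0.56, edgeR adjusted p = 0.0182). The call was lost without HFD replicate 1 (edgeR adjusted p = 0.0732) and without HFD replicate 2 (0.0617). Its log2 change was 2.09 without NCD replicate 1 and 3.54 without NCD replicate 2, and the 9 counts of NCD replicate 1 lie under the floor of 12 counts. Nefl and Stmn2 had the lowest levels of the 10 genes. As they passed the count filter through their HFD libraries, their 2 calls are no support for a rise among the genes, and with a filter at a mean of 5 CPM, where they were not tested, 0 of the 8 genes rose.

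**Figure D2:**
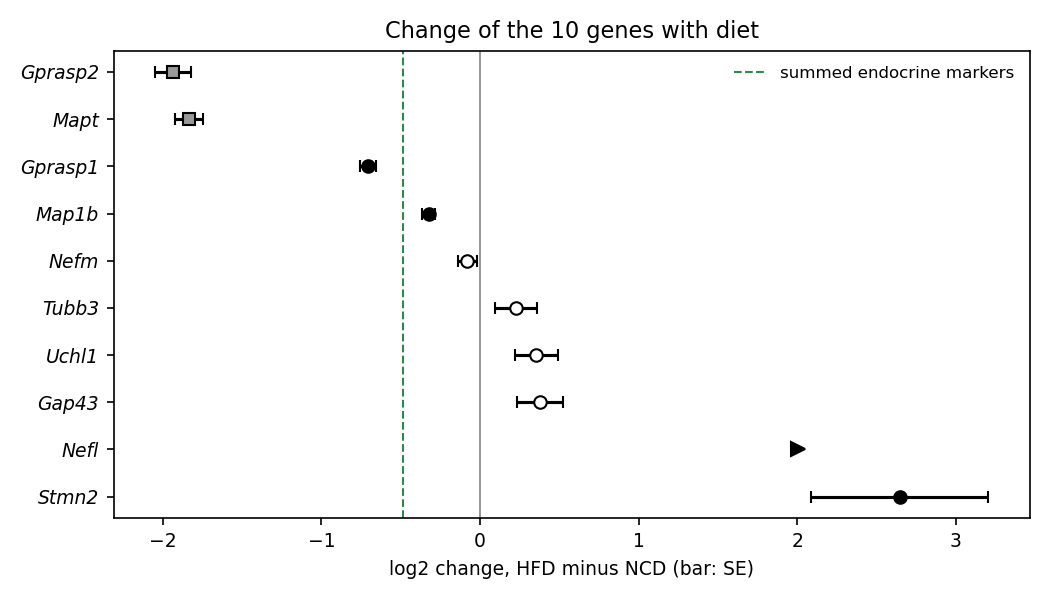
Log2 change of each gene, HFD minus NCD, with its SE; filled circles passed the edgeR test, open circles did not, and grey squares are Mapt and Gprasp2, shown without a test. The triangle is the lower bound for Nefl, and the dashed line at -0.49 is the change of the summed endocrine markers, past which Gprasp1, Mapt and Gprasp2 lie.

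Since endocrine markers as a whole were lower in HFD, at 71.4% of their sum in NCD, the genes were also set against that sum in each library. Per 100000 CPM of endocrine markers, Mapt stood at 248 and 231 in NCD and at 97.7 and 90.0 in HFD, and Gprasp2 at 165 and 186 in NCD and at 66.3 and 62.3 in HFD. The log2 ratios were -1.35 and -1.45, a description only, since both genes were picked for low values under HFD. Gprasp1 stood at 1550 and 1537 in NCD and 1381 and 1271 in HFD, a log2 ratio of -0.22. Map1b stood at 4621 and 4326 in NCD and at 5143 and 4865 in HFD, so that its direction turned (log2 ratio 0.16). Nefm, Tubb3, Uchl1 and Gap43 had log2 ratios of 0.41, 0.71, 0.84 and 0.86, with no overlap between the diets.

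The choice of endocrine transcripts mattered, since the sums of beta and alpha cell markers moved apart. Summed beta cell markers in HFD were 77.7% of their level in NCD, hormones together 98.0%, and alpha cell markers 140%, the last carried by Gcg, which encodes glucagon. Alpha cell markers as single genes were divided, with 4 of 10 called higher, 3 called lower and a median log2 change of 0.12 (TMM scaling). Of 12 beta cell markers 10 were called lower and 0 higher. Over all genes tested, 17.9% were called higher and 14.5% lower. Relative to beta cell markers, hormones and alpha cell markers the log2 ratio of Mapt was -1.47, -1.81 and -2.32 and that of Gprasp2 -1.57, -1.90 and -2.42. Gprasp1 stayed lower in HFD against each sum (-0.34, -0.67 and -1.19). Stmn2 stayed higher against each (3.03, 2.69 and 2.18). Map1b was higher against endocrine markers alone without overlap, overlapped between the diets against beta cell markers (0.04), and was lower against hormones (-0.29) and alpha cell markers (-0.81). Tubb3, Uchl1 and Gap43, higher against the other sums, had log2 ratios of -0.26, -0.13 and -0.11 against alpha cell markers, with overlap between the diets in Uchl1 and Gap43.

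**Figure D3:**
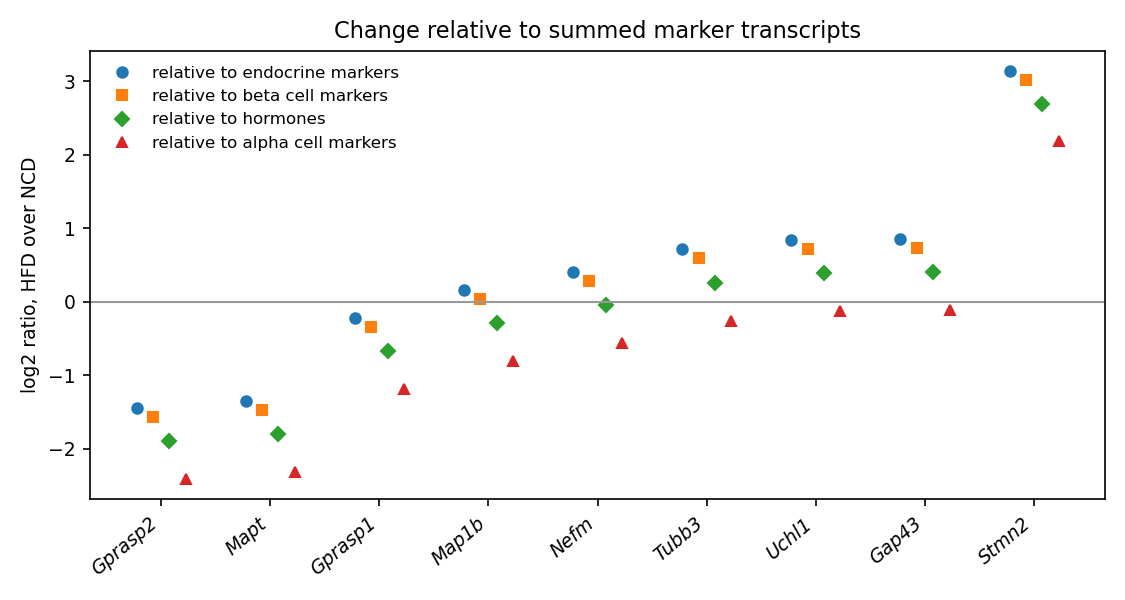
Log2 ratio of HFD over NCD for each gene after division by the summed CPM of endocrine, beta cell, hormone or alpha cell markers; Nefl, without a count in NCD, is left out. Gprasp2, Mapt and Gprasp1 lie under 0 and Stmn2 above 0 with each of the 4 sums, whereas the symbols of Map1b, Nefm, Tubb3, Uchl1 and Gap43 fall on both sides of 0.

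When the edgeR test itself was run with library sizes taken from the endocrine markers, the median log2 change over all genes moved from 0.00 to 0.49, and 95.9% of the calls were rises in place of 55.3%. In that scaling Gprasp1 was lower (log2 change -0.22, edgeR adjusted p = 0.0234) and 7 of the 8 genes other than Mapt and Gprasp2 were higher, Map1b and Nefm among them (edgeR adjusted p = 0.0435 and 0.00431). Any fall of less than 0.49 on the log2 scale becomes a value above 0 there, and a larger fall stays below 0. Over all genes tested, 46.3% passed as higher and 1.99% as lower in that scaling, against 17.9% and 14.5% with TMM scaling. Medians and calls of the groups of related genes below are given in both scalings, at the same threshold. They are to be set beside these shares, and a count near them is not read as a result about its group. The window on the X chromosome is given with TMM scaling alone.

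Of the other tubulin genes, 8 of 13 tested rose and none fell with edgeR at an adjusted p under 0.05 (1 of the 13, Tuba8, had a value below 0, log2 change -0.29, edgeR adjusted p = 0.466). Their median log2 change was 0.67, or 1.15 scaled to endocrine markers, against 0.00 over all genes, and 9 rose and 0 fell in that scaling. Tubb6, a broadly expressed beta tubulin, rose from 25.8 ± 1.37 to 74.6 ± 5.96 CPM, Tuba1c from 58.8 ± 1.76 to 117 ± 2.10 CPM and Tubb5 from 166 ± 0.829 to 280 ± 7.55 CPM. The most abundant per kilobase, Tuba1b, rose from 131 ± 0.380 to 203 ± 0.517 CPM and Tuba1a from 102 ± 4.18 to 186 ± 20.8 CPM. Tubb3 had a smaller change than each of these. Alpha tubulin genes have near-identical sequences, so their single counts are uncertain, and Tuba3b had no count. The gene Gm49450 shares 473 exonic bases on the same strand, or 26.2% of the exons, with Tuba1a and 426, or 22.7%, with Tuba1b. Gm49450 had no count in the NCD libraries or HFD replicate 1 and 1802 counts in HFD replicate 2. How reads there were assigned is unstated in the sources used here.

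Other microtubule-associated proteins divided. Of 24 tested, 7 fell, 5 rose and 12 did not pass, with a median log2 change of -0.18 that turned to 0.30 when scaled to endocrine markers, where 14 rose and 0 fell. Only 4 fell without HFD replicate 2 or without NCD replicate 1. Map7, which recruits kinesin to microtubules, fell from 140 ± 6.72 to 95.0 ± 1.71 CPM (edgeR adjusted p = 0.00166). Dclk1, a doublecortin-like kinase, rose from 9.56 ± 2.68 to 80.2 ± 7.25 CPM (edgeR adjusted p = 0.000401). The other rises were Map7d1 (116 ± 2.75 to 159 ± 9.36 CPM), Mapre1 (119 ± 8.25 to 153 ± 8.74 CPM, not called without HFD replicate 2 or NCD replicate 1), Clip2 (51.8 ± 1.39 to 68.3 ± 1.33 CPM) and Map1a, the partner of Map1b in mature neurons (13.1 ± 2.83 to 26.2 ± 0.709 CPM). Map2 and Map4, the relatives of tau, stood at 152 ± 10.4 and 144 ± 8.42 CPM under NCD and at 132 ± 6.81 and 167 ± 8.68 CPM in HFD and did not pass (edgeR adjusted p = 0.0755 and 0.0618).

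Of 7 other stathmins and collapsin response mediators tested, 2 rose and 2 fell, with a median of 0.10, or 0.74 over 8 genes tested when scaled to endocrine markers, where 4 rose and 0 fell. Dpysl3 rose from 5.42 ± 0.273 to 56.4 ± 3.38 CPM, while its relatives Dpysl2 and Crmp1 fell from 63.6 ± 4.94 to 44.7 ± 1.90 CPM and from 44.8 ± 1.32 to 31.1 ± 2.91 CPM. Dpysl4 rose from 0.309 ± 0.109 to 1.12 ± 0.0366 CPM, a call lost under the replicate block (edgeR adjusted p = 0.0658) and without HFD replicate 1, HFD replicate 2 or NCD replicate 1 (0.134, 0.123 and 0.0926). Stmn3, a neuronal stathmin, stood at 10.2 ± 0.844 and 9.20 ± 0.152 CPM (edgeR adjusted p = 0.467). Stmn4 had no count in NCD and 19 and 9 counts in HFD and was not tested.

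Of 8 other intermediate filament genes, 4 rose and 1 fell, with a median of 1.56, or 2.05 scaled to endocrine markers, where 5 rose and 0 fell. Those that rose were Des, the filament of muscle (6.54 ± 0.895 to 47.4 ± 0.238 CPM), Vim, that of mesenchymal cells (120 ± 14.4 to 401 ± 95.4 CPM), Nes (26.6 ± 1.82 to 56.3 ± 4.21 CPM) and Synm (2.12 ± 0.01004 to 8.99 ± 2.10 CPM). Ina, the neuronal alpha-internexin that co-assembles with neurofilaments, fell from 44.1 ± 1.18 to 30.2 ± 1.22 CPM (log2 change -0.54, edgeR adjusted p = 0.00415). Fibroblast markers rose beside them, with 10 of 10 called and a median log2 change of 3.33; their part in these rises was not tested. Of 7 growth cone genes 3 rose and 1 fell (median 0.47, or 0.96 scaled to endocrine markers, where 5 rose and 0 fell). Marcksl1 rose from 19.0 ± 2.15 to 79.1 ± 1.27 CPM, Basp1 from 36.3 ± 0.759 to 63.1 ± 2.88 CPM and Marcks from 112 ± 4.11 to 155 ± 9.15 CPM, whereas Pcp4, a calmodulin-binding protein, fell from 8.88 ± 1.00 to 4.76 ± 1.56 CPM (edgeR adjusted p = 0.0485). The call of Pcp4 was lost with no count filter (edgeR adjusted p = 0.0715), under the replicate block (0.0779), and without HFD replicate 2, NCD replicate 1 or NCD replicate 2 (0.104, 0.081 and 0.148).

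Of 8 other members of the GPRASP and ARMCX family, 4 fell and none rose (median log2 change -0.23), whereas scaled to endocrine markers 2 rose and 0 fell (median 0.26). The falls of Armcx2 and Bhlhb9 were lost without HFD replicate 1, NCD replicate 1 or NCD replicate 2, which left 2 falls, and that of Armcx2 also without HFD replicate 2. Armcx1 fell from 23.8 ± 0.637 to 15.4 ± 0.481 CPM, Armcx4 from 75.4 ± 1.17 to 54.0 ± 0.967 CPM, Armcx2 from 57.7 ± 1.18 to 48.1 ± 0.445 CPM and Bhlhb9 from 25.3 ± 1.20 to 18.2 ± 2.79 CPM. Armcx3, which binds to mitochondria, stood at 77.9 ± 11.3 and 69.7 ± 7.69 CPM (edgeR adjusted p = 0.389). Of 11 tested Bex and Tceal genes, small proteins of neurons and endocrine cells encoded in the same stretch of the X chromosome, 7 fell and none rose (median -0.63, or -0.14 scaled to endocrine markers, where 5 fell and 1 rose). The falls in both scalings include Tceal6, which passed the count filter through its NCD libraries. Its call is therefore no support for a fall among these genes. Bex2 fell from 183 ± 1.23 to 104 ± 4.52 CPM, Bex3 from 162 ± 0.885 to 101 ± 5.66 CPM, Bex1 from 50.3 ± 1.502 to 27.1 ± 2.13 CPM and Tceal9 from 245 ± 12.1 to 182 ± 1.15 CPM. Tceal6 had no count in HFD and 18 and 27 counts in NCD, at least 1.76-fold lower than in NCD against the floor, a call lost without any 1 of the 4 libraries (edgeR adjusted p from 0.0758 to 0.115) and under the replicate block (0.0769), and Bex6 had no count at all.

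**Figure D4:**
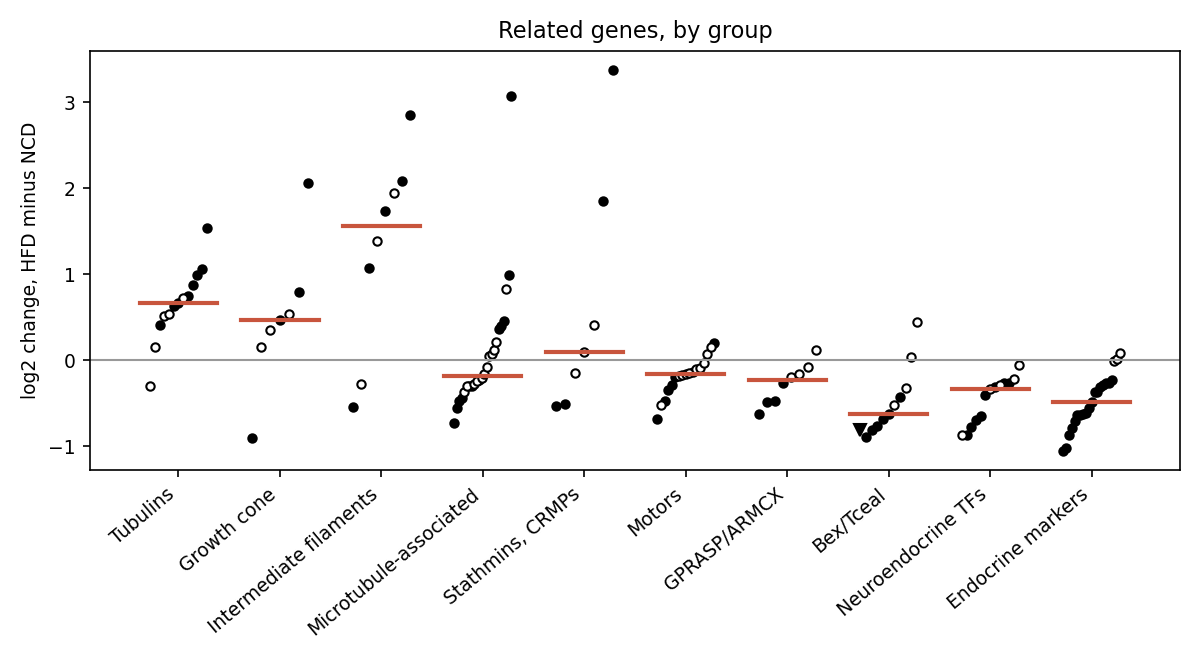
Log2 change, HFD minus NCD, of each tested gene in 10 groups of related genes, as points (filled where edgeR adjusted p was under 0.05) with the median as a red bar and a triangle for the bound of Tceal6. Tubulins have a median of 0.67 and Bex and Tceal genes one of -0.63; scaled to endocrine markers these medians are 1.15 and -0.14, and those of the microtubule-associated, motor, GPRASP/ARMCX and neuroendocrine transcription factor groups turn from below to above 0.

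Within 3 Mb on either side of the start of Gprasp1, 51 protein-coding genes were tested, of which 18 fell, 7 rose and 26 did not pass (median log2 change -0.26). The 18 include Gprasp1, Gprasp2, which was chosen for its low value, and Tceal6, which passed the count filter through its NCD libraries. These values are with TMM scaling alone. Scaled to endocrine markers, any fall of less than 0.49 becomes a value above 0. Among all 676 tested X-linked genes 17.0% fell and 14.9% rose, with a median of -0.05. Gprasp2 had the lowest log2 change in this window among genes with counts in both diets. Beyond the families named, Sytl4, a granule protein of beta cells that lies upstream at -1806 kb, fell from 220 to 119 CPM (edgeR adjusted p = 0.000263), and Zcchc18, at 1250 kb, from 80.4 to 50.3 CPM (edgeR adjusted p = 0.00357). Btk, a kinase of B cells at -1200 kb, rose from 6.42 to 14.5 CPM (edgeR adjusted p = 0.0137). These 3 were picked after their values were seen. Each library held few Xist counts, at 0.620, 0.257, 0.905 and 0.565 CPM, and the Y-linked Ddx3y at 115, 113, 117 and 121 CPM (edgeR adjusted p = 0.423 and 0.418).

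**Figure D5:**
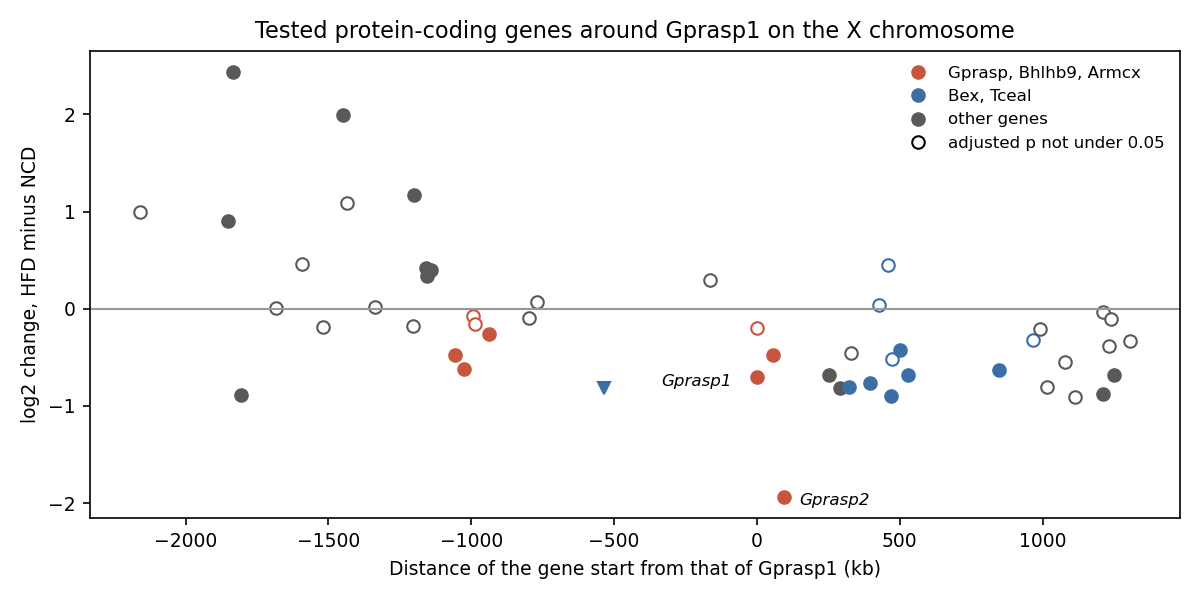
Log2 change, HFD minus NCD, of the tested genes against the distance of their start from that of Gprasp1 in kb, filled where edgeR adjusted p was under 0.05; the triangle is the bound of Tceal6. The point of Gprasp2 is filled as well, but this gene was chosen for its low value and its point is a description only. Gprasp2 lies at -1.93, under the called Gprasp1 relatives (red) and Bex and Tceal genes (blue).

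Of 22 tested genes that sort G protein-coupled receptors after endocytosis, 6 fell and 2 rose (median -0.08), whereas scaled to endocrine markers 17 rose and 0 fell (median 0.41). Without HFD replicate 1 only 2 fell. Arrb1, encoding beta-arrestin 1, rose from 16.3 ± 0.677 to 37.8 ± 2.19 CPM and the receptor kinase gene Grk6 from 36.2 ± 1.91 to 50.8 ± 3.20 CPM. Grk3 fell from 236 ± 4.28 to 176 ± 0.892 CPM and Vps26b, a retromer subunit, from 105 ± 2.49 to 82.5 ± 1.69 CPM. Rab7, a GTPase of late endosomes, stood at 509 ± 17.2 and 455 ± 44.1 CPM (edgeR adjusted p = 0.151).

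Of 18 kinases and phosphatase subunits that act on tau, 3 rose and 3 fell (median 0.03), and scaled to endocrine markers 12 rose and 0 fell (median 0.52). Without HFD replicate 2 only 1 fell. Cdk5r2, an activator of the kinase CDK5, fell from 41.2 ± 1.11 to 29.3 ± 1.08 CPM (edgeR adjusted p = 0.00597). Fyn rose from 62.3 ± 0.986 to 80.5 ± 0.00214 CPM and Ttbk1 from 4.11 ± 0.106 to 7.65 ± 0.221 CPM. The other calls were a rise of Ppp2r2a, lost without HFD replicate 1 or NCD replicate 2, and falls of Mark1, lost without HFD replicate 2, and Cdk5, lost without any 1 library. Of 17 kinesin and dynein genes 6 fell and 1 rose (median -0.16), whereas scaled to endocrine markers 13 rose and 1 fell (median 0.33). Without HFD replicate 1 or NCD replicate 2 there were 3 falls and without HFD replicate 2 there were 2, the fall of Dctn1 lost among them. Kif1a, which moves dense-core vesicles, fell from 377 ± 8.72 to 236 ± 6.30 CPM (log2 change -0.68, edgeR adjusted p = 0.000370), Kif3a from 60.0 ± 0.915 to 43.1 ± 1.23 CPM and Dctn1 from 238 ± 12.4 to 196 ± 1.64 CPM. Dync1li2 rose from 121 ± 0.604 to 139 ± 5.03 CPM, a call lost without any 1 of the 4 libraries (edgeR adjusted p from 0.055 to 0.156), under the replicate block (0.0509) and with no count filter (0.0549).

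Rest itself rose from 16.8 and 12.7 CPM under NCD to 44.1 and 36.6 CPM in HFD (log2 change 1.45, edgeR adjusted p = 0.00235). Of 11 genes of the REST complex tested, 2 rose and 2 fell (median -0.11), whereas scaled to endocrine markers 9 rose and 0 fell (median 0.38). The other rise was Ctdsp1 (80.2 ± 5.84 to 102 ± 3.67 CPM), lost without HFD replicate 1 or NCD replicate 2 (edgeR adjusted p = 0.068 and 0.0634), and the falls were Rcor3 (56.9 ± 1.61 to 39.5 ± 4.68 CPM) and Hdac2 (110 ± 0.318 to 89.9 ± 0.708 CPM). Rest is expressed in most cells that are neither neurons nor endocrine, and markers of acinar cells (13 of 13 tested), fibroblasts (10 of 10) and B cells (8 of 8) rose in the same libraries; their part in its rise was not tested. Of 13 tested transcription factors shared by neurons and endocrine cells, 8 fell and none rose (median -0.34), whereas scaled to endocrine markers 3 fell and 2 rose (median 0.15). Without NCD replicate 2 there were 5 falls. Myt1 fell from 86.7 ± 0.0930 to 47.6 ± 0.0996 CPM, Celf3, an RNA-binding protein kept in this list, from 241 ± 11.7 to 141 ± 3.86 CPM and Nkx2-2 from 90.5 ± 3.03 to 56.1 ± 0.594 CPM.

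Markers of neurons and nerve were given beside these genes because islets hold nerve fibres. Of 20 such markers 15 passed the count filter; 4 fell and 2 rose (median -0.10), or 2 fell and 4 rose scaled to endocrine markers (median 0.39), and their sum was 334 and 329 CPM under NCD and 225 and 236 CPM in HFD. Chat and Scn10a had no count in any library and Dbh none in NCD. The falls were in Ret (106 ± 4.17 to 58.4 ± 1.05 CPM), Syn1 (105 ± 2.43 to 73.6 ± 0.866 CPM), Elavl4 (39.9 ± 0.842 to 22.8 ± 2.50 CPM) and Rbfox3 (not called without HFD replicate 2 or NCD replicate 1), genes that endocrine cells can also express. The rises were in the neuropeptide genes Vip, from 0.0310 ± 0.0439 to 2.76 ± 0.664 CPM, and Tac1, from 0.545 ± 0.0194 to 2.00 ± 1.03 CPM. The NCD level of Vip lay under the floor of 12 counts per library. As Vip passed the count filter through its HFD libraries, its call is no support for a rise among these markers. Tac1 was not called without HFD replicate 1, NCD replicate 1 or NCD replicate 2 or with limma-voom. Of 11 Schwann cell and glia markers 4 rose and none fell, though 1 fell with DESeq2, with limma-voom and under the replicate block (median 1.09, or 1.58 with 7 rises scaled to endocrine markers), with sums of 153 and 145 CPM under NCD and 170 and 178 CPM in HFD and Gfap without a count in NCD replicate 1. Pmp22 rose from 10.8 ± 0.336 to 27.6 ± 1.89 CPM, Ngfr from 3.31 ± 0.361 to 8.03 ± 0.114 CPM and Erbb3 from 11.5 ± 0.842 to 17.0 ± 0.217 CPM. The fourth, Sox10, was not called without any 1 library or under the replicate block, and Erbb3 not without HFD replicate 1, HFD replicate 2 or NCD replicate 2, which left 2 rises. Whether nerve contributed to the rises of Nefl and Stmn2 was not tested.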

How the data were processed

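For each library the authors deposited 1 table of integer read counts by Ensembl gene. The submitters' processing notes name HISAT, featureCounts 1.5.0, DESeq 1.8.3 and GRCm38 without roles or settings; strand and multi-mapping settings are unstated in the sources used here. Per the labels' protocols, islets were frozen, RNA was taken with TRIzol from what is named islet macrophages, and a stranded KAPA kit was used. Low counts favoured multiples of 4 over their neighbours by a factor of 1.64 to 1.74, so single counts may be less precise than totals give; the floor for a gene without a count was 12 counts per library, 3 steps of 4, and covers counting error only.

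Symbols, lengths and coordinates came from GENCODE M21 (GRCm38), which named 55240 of 55421 identifiers, and promoters from RefSeq (GRCm38.p6). In R 4.3.3, genes passing filterByExpr (minimum count 10) were scaled by TMM and tested with edgeR 4.0.16 (quasi-likelihood, diet only, Benjamini-Hochberg adjusted p under 0.05 over all genes). The procedure was tried on simulated data with the same dispersion for each gene and few changed genes, a simpler setting than these data. Alternatives were DESeq2 size factors, DESeq2 1.42.0, limma-voom (limma 3.58.1), other count filters, a replicate block, leaving out each library, other library sizes, counts divided by 4 and a minimum change of 2-fold. Members and the 28 lists of related genes and markers were chosen with earlier results of these data known. Of each list, the text names up to 3 genes with the smallest p, up to 2 with the highest level per kilobase, called genes moving against their list and genes without counts in a diet. Others, such as Map2, Map4, Rbfox3, Synm, Bhlhb9, Dpysl4, Mark1, Cdk5, Ppp2r2a, Sox10 and Tuba8, were named after their values were seen. Becn2 matched no identifier. The result of 1 list is not reported here. Prph, Gfap and several hormone and beta cell genes are on 2 lists or more.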

Additional observations from a re-analysis of the deposited data

How the results depend on the processing

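The log2 change of Mapt ranged from -1.89 to -1.35 and that of Gprasp2 from -2.02 to -1.45 over 14 alternatives each. Library sizes from the endocrine markers gave 10081 genes higher and 434 lower, 7 and 1 of the 8 members other than Mapt and Gprasp2, and 193 and 28 genes of the lists. Map1b and Nefm turned to 0.16 and 0.41 there. Log2 ratios above 0 against the endocrine sum, without a test, were below 0 against alpha cell markers in Tubb3 (-0.26), Map1b (-0.81), Nefm (-0.56), Gap43 (-0.11) and Uchl1 (-0.13), and against hormones in Map1b (-0.29) and Nefm (-0.0496). Those of Map1b and Nefm have the sign of their log2 change in CPM. The diets overlapped for Gap43 and Uchl1 against alpha cell markers and for Nefm against hormones. Requiring a change of at least 2-fold, which by construction drops small changes, left 1060 genes higher and 50 lower, 1 and 0 of the 8 members, and 52 and 4 genes of the lists. At a mean of at least 5 CPM, 0 of the 8 members were higher, since Nefl and Stmn2 were not tested. Leaving out each library gave 2015 to 2174 genes lower, the lowest without HFD replicate 1, and 0 to 3 of the 8 members higher, with 1 without HFD replicate 1 and 0 without HFD replicate 2. With the replicate block 3252 genes were higher and 2583 lower. Same-numbered libraries did not deviate together over all genes tested (correlation 0.002). With 2 libraries per diet this value is the same for both numbers by construction, and a shared batch in some genes was not tested. No label marks the numbers as pairs, so they are not taken as such. Of the 8 members the block changed only the call of Uchl1. Precision is limited by 2 libraries per diet and, for Nefl and Stmn2, by counts of 107 or fewer.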

Other observations

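A few genes of the related groups differed more within a diet than between diets. They were picked after their values were seen and are given as values. Gsk3b, the main tau kinase, stood at 198 and 77.5 CPM under NCD and at 91.8 and 84.6 CPM in HFD (edgeR adjusted p = 0.297). Syt7, a calcium sensor of granule release, stood at 385 and 129 CPM under NCD and at 258 and 261 CPM in HFD (edgeR adjusted p = 0.990). In both genes NCD replicate 1 was the high library. Tuba4a stood at 33.4 and 61.2 CPM under NCD and at 42.5 and 63.0 CPM in HFD (edgeR adjusted p = 0.759). Cap1, an actin regulator, stood at 181 and 299 CPM under NCD and at 204 and 330 CPM in HFD (edgeR adjusted p = 0.758). In Tuba4a and Cap1 replicate 2 was the higher library within each diet.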
